A study of Mus musculus with 5 samples.

Results

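Intergenic CpG positions of the autosomes were followed on each parental allele of mouse embryonic fibroblasts. A position, meaning the cytosine of a CpG on 1 strand, was counted as intergenic when it lay on chromosomes 1 to 19 and more than 5 kb from every gene of any type in the GENCODE M21 annotation of mm10, and when all 5 libraries had more than 20 calls there on the allele described. Segments of chromosome 12 (19.5 to 22.0 Mb) and chromosome 4 (145.0 to 148.0 Mb) were left out by that rule. This left 13204 of 127737 covered positions on the domesticus allele and 12787 of 132504 on the castaneus allele, with 4923 intergenic positions covered on both. Runs of at least 4 covered positions with gaps of at most 100 bp were called regions, and 968 of 11144 domesticus and 912 of 11507 castaneus regions were intergenic.

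The libraries were made by eRRBS, an enhanced form of reduced representation bisulphite sequencing that reads mostly CpG-rich fragments cut by the enzyme MspI. Bisulphite turns unmethylated cytosine into uracil, so each read gives a methylated or unmethylated call at each CpG it crosses, and mC is the methylated share of the calls. The female MEFs were derived at E13.5 from 129/C57 dams and CAST sires, and all carried the Xist deltaA deletion in heterozygous form. The Female group (control, n = 3) was Setdb1+/+ with a nonsilencing shRNA, and the Setdb1 depleted group (n = 2) was Setdb1+/gt, heterozygous for a gene trap, with shSetdb1, so that genotype and hairpin differed together. All were transduced with retrovirus and selected with puromycin. The labels do not say whether replicates were separate embryos, so p-values speak for these libraries only. Calls on DNA show neither the level of Setdb1 nor fibroblast marker expression, and neither was checked.

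Setdb1 is a methyltransferase that places methyl groups on lysine 9 of histone H3, and it is known for silencing retroviral repeats, to which zinc finger proteins bring it through the co-repressor Trim28. In mammalian somatic cells most CpGs between genes are methylated, while CpG islands, which are dense in CpGs, usually are not. Repeats are among the most methylated intergenic sequences, and loss of H3K9 methylation can be accompanied by loss of mC at some of them. The comparison of the groups asks whether intergenic mC differed after Setdb1 depletion.

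Sequences that carry the main contrasts are shown first, from the plus strand of GRCm38 (the build also called mm10), as RefSeq gives it, with 10 bp on either side of the region and the CpGs measured on the allele named in capitals. The first set holds the castaneus regions past the threshold of the region test, near Mif and Gm13655, and the next by p.
Mif region, chr10:75865974-75866058: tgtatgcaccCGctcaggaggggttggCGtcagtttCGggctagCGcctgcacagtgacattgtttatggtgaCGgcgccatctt
Gm13655 region, chr2:75610079-75610157: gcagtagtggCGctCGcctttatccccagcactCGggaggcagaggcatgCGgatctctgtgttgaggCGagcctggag
Gm14262 region, chr2:168311192-168311274: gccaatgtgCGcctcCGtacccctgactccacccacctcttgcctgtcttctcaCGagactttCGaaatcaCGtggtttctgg
A repeat-masked region near Gm48216, measured on the domesticus allele, is shown because it is alike to the Mif region in sequence.
Gm48216 region, chr13:106537243-106537300: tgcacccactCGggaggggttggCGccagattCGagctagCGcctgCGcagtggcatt
The unmethylated end of the range is shown by a CpG-dense domesticus region near Gm37425.
Gm37425 region, chr13:98504965-98505077: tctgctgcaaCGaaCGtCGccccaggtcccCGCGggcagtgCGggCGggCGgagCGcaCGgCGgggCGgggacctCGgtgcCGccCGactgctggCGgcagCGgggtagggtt
The region with the largest difference between the alleles lay near Cript.
Cript region, chr17:87041741-87041844: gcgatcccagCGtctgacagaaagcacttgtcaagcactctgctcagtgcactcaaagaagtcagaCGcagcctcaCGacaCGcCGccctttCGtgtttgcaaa

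Each library held 9440874 to 10558931 calls per allele, and the median intergenic position had 45 to 49 calls per library. The domesticus allele was taken as maternal: at the imprinted gene Zrsr1 on chromosome 11, which is methylated on the maternal copy, mC was 93.0 to 97.4% on domesticus and 0.784 to 4.66% on castaneus. Replicates of a group had a mean chi-square per position of 2.75 to 3.99, against the value near 1 that sampling of independent reads would give. Reads copied by PCR would raise this value too, and their removal is not given. It therefore cannot show whether libraries were repeats of the same sample, and each was counted as its own replicate. Intervals from counts alone are therefore not given, and the spread over libraries is used.

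Intergenic mC was bimodal. Of the domesticus positions 45.2% had mC of 80% or more, 39.0% lay between 20 and 80%, and 15.8% were under 20%. The castaneus shares were 44.3, 37.8 and 17.9%. Repeat-masked sequence held 28.7% of domesticus and 27.0% of castaneus positions, CpG islands held 6.63% and 7.84%, and 84.5% and 84.99% sat in a 31-base stretch found once in the reference. The nearest gene was protein-coding for 35.7% of domesticus and 37.2% of castaneus positions, and the median distance to it was 19.3 and 17.5 kb. The restriction site itself was almost unread, with 17 domesticus and 78 castaneus positions in CCGG.

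The mean over all intergenic positions did not separate the groups on either allele. Domesticus libraries averaged 64.0, 64.8 and 63.6% mC in controls and 64.0 and 64.7% in depleted cells. The depleted values lay within the range of the controls. The means of 64.1% ± 0.567 (SD, n = 3) and 64.4% ± 0.447 (SD, n = 2) differed by 0.211 points (exact permutation of library labels, two-sided, p = 0.7). On castaneus the libraries averaged 62.5, 63.1 and 61.9% in controls and 62.4 and 62.9% in depleted cells, again overlapping, with a difference of 0.148 points (exact permutation p = 0.9). With 3 and 2 libraries the smallest p this test can give is 0.1, so it cannot pass 0.05. At positions covered on both alleles the change on castaneus minus that on domesticus was -0.0021 points (exact permutation p = 1.0).

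**Figure D1:**
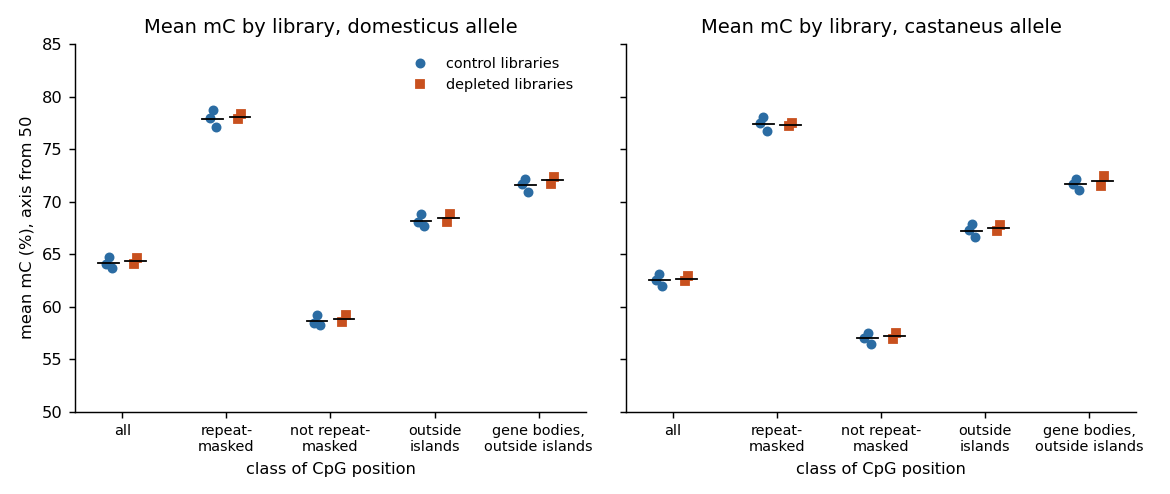
Mean mC (%, axis from 50) of each library for classes of CpG positions, on the domesticus (left) and castaneus (right) allele, with control libraries as circles, depleted libraries as squares and group means as bars. Repeat-masked intergenic positions sit near 77 to 79% and the rest near 56 to 59%, and the groups overlap in every class drawn.

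Repeat-masked and other intergenic positions differed far more from each other than the groups did. Domesticus repeat-masked positions averaged 77.9% ± 0.795 (control SD, n = 3) and 78.1% ± 0.353 (depleted SD, n = 2), and the others 58.6% ± 0.488 and 58.8% ± 0.484. On castaneus the repeat-masked positions averaged 77.4% ± 0.653 and 77.3% ± 0.216, and the others 56.998% ± 0.537 and 57.2% ± 0.414. The gap between both kinds on castaneus was 20.4, 20.5 and 20.3 points in controls and 20.2 and 19.96 in the depleted ones. These groups did not overlap and differed by -0.333 points, and the exact permutation p was 0.1, the smallest possible. With more than 40 calls required, the difference was -0.188 points (exact permutation p = 0.7), and without depleted replicate 2 it was -0.193 points. On domesticus the gap was 19.5, 19.5 and 18.9 points against 19.3 and 19.1, and the groups overlapped (difference -0.050 points, exact permutation p = 1.0).

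Intergenic positions outside islands were less methylated than gene body positions outside islands, the latter taken inside genes and more than 1 kb from any start. The difference was -3.48 points on domesticus (-3.61, -3.34 and -3.30 in controls, -3.63 and -3.53 in depleted) and -4.45 points on castaneus (-4.40, -4.33 and -4.46, then -4.35 and -4.70). Intergenic positions were lower in 5 of 5 libraries on both alleles (exact permutation by sign flips, two-sided, p = 0.0625, which is the smallest that 5 libraries allow). Repeat-masked positions did not show this difference on castaneus, and on domesticus its sign varied by library. Repeat-masked intergenic positions had 77.5, 78.1, 76.8, 77.2 and 77.5% on castaneus in the 3 control and then the 2 depleted libraries, above repeat-masked gene body positions outside islands (76.97, 76.9, 76.0, 76.4 and 76.4%) in each library, and on domesticus they were above in 3 libraries and below in control replicate 3 (77.08 against 77.14%) and depleted replicate 1 (77.82 against 77.85%). The intergenic repeat class keeps any island positions and the gene body class does not, and these values have no test. The pooled difference did not separate the groups (exact permutation p = 0.3 on domesticus and 0.5 on castaneus).

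Within the intergenic positions, mC was higher in bins farther from genes. Just inside the distance limit, at 5 to 10 kb, the mean was 59.6% on domesticus and 56.1% on castaneus, and just outside it, up to 5 kb from genes but outside islands and away from starts, it was 57.8 and 56.6%. The nearer class leaves out islands and the 5 to 10 kb class keeps them, so these are not set against each other. On domesticus it then averaged 62.7% at 10 to 25 kb, 64.4% at 25 to 50 kb, 70.7% at 50 to 100 kb and 75.4% beyond 100 kb. The castaneus means in these bins were 62.2, 65.2, 67.7 and 74.0%. These are means over libraries, given as a description, and the same genome stretches enter both alleles. By chromosome, the lowest mean was on chromosome 19 (56.0% on domesticus, 53.1% on castaneus) and the highest on chromosome 10 (73.5 and 73.6%). Positions in a 31-base stretch found once averaged 61.8% on domesticus and 60.3% on castaneus, and those in stretches found 100 times or more 79.2 and 77.5%. The base before the CpG mattered less, with means of 62.6 to 66.0% and 61.1 to 64.8% over the 4 bases, highest after C on both alleles.

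CpG density separated repeats from other sequence. Outside repeats, domesticus mC was 68.3% with 1 to 3 CpGs in 200 bp, 66.997% with 4 to 6, 63.4% with 7 to 9, 45.6% with 10 to 14 and 9.61% with 15 or more. Repeat-masked positions in the same bins had 68.9, 74.7, 80.9, 81.8 and 72.3%. On castaneus mC outside repeats also went down from bin to bin, to 9.59%, while in repeats it was 70.6, 76.3, 79.1, 81.3 and 67.5%, so that the densest bin, of 97 positions, was the lowest there. Gene body positions, repeats and islands included, ended at 18.4% on domesticus and 15.8% on castaneus, close to the 18.4 and 15.7% of all intergenic positions in the densest bin.

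**Figure D2:**
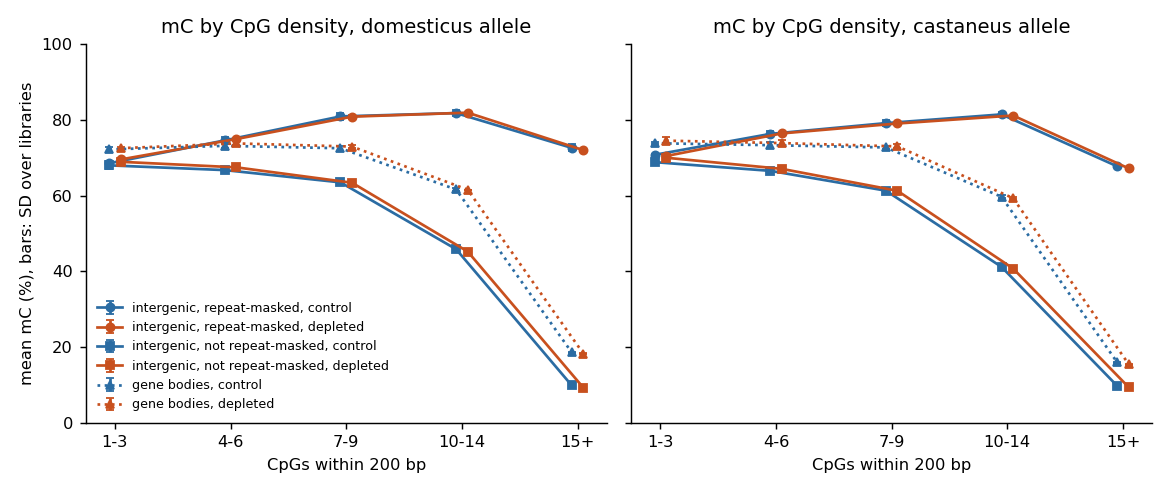
Mean mC (%) against the number of CpGs within 200 bp for intergenic positions in repeats (circles), outside repeats (squares) and in gene bodies (triangles, dotted), by group, with bars for the SD over libraries. The drop to 9.61% on domesticus and 9.59% on castaneus at 15 or more CpGs occurs outside repeats, while repeat-masked positions stay at 72.3 and 67.5%.

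Intergenic CpG islands and intergenic positions under 5% mC had lower values in the depleted libraries on both alleles. In intergenic CpG islands, domesticus mC was 7.67, 7.49 and 7.51% in controls and 7.09 and 6.75% in depleted libraries (875 positions). Castaneus islands had 6.94, 6.93 and 6.83% against 6.54 and 6.34% (1003 positions). Neither allele's groups overlapped, and the differences were -0.639 and -0.462 points. Positions with mean mC under 5% had 1.31, 1.32 and 1.44% in domesticus controls and 1.08 and 0.969% in depleted libraries. On castaneus they had 1.31, 1.35 and 1.39% against 1.07 and 1.04%. These classes were picked out after their values were seen, so no test is given. The other classes of mean mC did not share the pattern on both alleles. Positions at 5 to 20% differed by -0.861 points on domesticus, where the groups overlapped, and by -0.546 on castaneus, where they did not, although the nearest control and depleted libraries both stood at 11.7%. Positions at 20 to 80% differed by 0.0119 points on domesticus and -0.141 on castaneus, and those at 80% or more by 0.638 and 0.605, and in these classes the groups overlapped on both alleles. Islands within 5 kb of a gene also stood lower without overlap, at 2.44% ± 0.029 against 2.33% ± 0.012 on domesticus and 2.34% ± 0.039 against 2.23% ± 0.006 on castaneus, a difference of -0.109 and -0.116 points. Castaneus gene body positions with 15 or more CpGs in 200 bp had 15.96% ± 0.066 against 15.46% ± 0.113, -0.503 points without overlap. Bisulphite conversion was not measured from these calls, and its part in differences of this size was not tested.

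**Figure D3:**
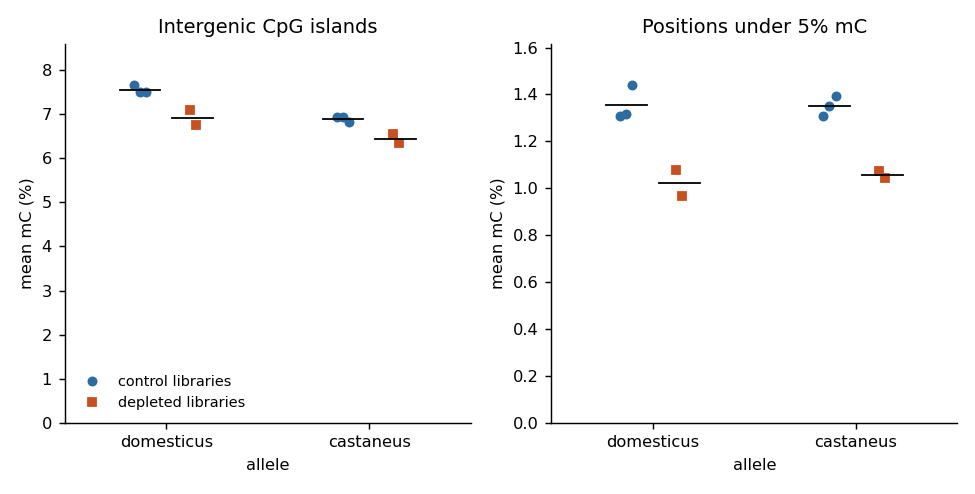
Mean mC (%, axis from 0) of each library in intergenic CpG islands (left) and at intergenic positions with mean mC under 5% (right), on both alleles, with group means as bars. The depleted libraries (squares) lie under the controls (circles) on both alleles in both classes.

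Single reads showed how calls were combined on 1 molecule. Of reads with at least 4 intergenic calls, 35.8, 34.8 and 35.6% mixed methylated and unmethylated calls in domesticus controls and 34.9 and 34.6% in depleted libraries (exact permutation p = 0.3). The castaneus shares were 33.7, 32.2 and 32.9% against 32.1 and 33.7% (exact permutation p = 0.8). Reads from repeats with no methylated call were rare. On castaneus they made up 1.44, 1.26 and 1.46% of repeat reads in controls and 2.05 and 2.14% in depleted libraries. On domesticus the shares were 1.84, 1.93 and 2.23% against 2.64 and 2.52%, and the groups overlapped on neither allele. With reads of at least 3 calls they overlapped on both (2.83, 2.98 and 3.13% against 3.06 and 3.22% on castaneus, 2.82, 2.51 and 2.89% against 3.19 and 2.78% on domesticus). This share was looked at after other results were known and has no test.

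Few positions passed the test position by position, a quasi-binomial model with limma-moderated dispersion and Benjamini-Hochberg adjustment over all covered positions of the allele. The moderation gave all castaneus positions the same dispersion of 3.14, and domesticus positions nearly the same (prior of 3.16 with 1005 degrees of freedom). A position's own spread between libraries thus hardly entered its p on domesticus, and not at all on castaneus. At an adjusted p under 0.05 it called 15 intergenic domesticus positions, of which 11 had less and 4 more mC after depletion, where 0.0376% of all domesticus positions were called. On castaneus it called 1 intergenic position, against 0.00528% of all positions. At an unadjusted p under 0.05 there were 342 lower and 348 higher domesticus positions, 5.23% of the intergenic ones against 2.47% of all. On castaneus 334 were lower and 302 higher, 4.97% against 2.49%. The threshold itself would admit a share of 0.05 where nothing changed, if the p-values were exact. The share over all positions was lower than that, so the intergenic shares alone show neither a change nor its absence. Of the 132504 castaneus positions, 75608 lay in islands within 5 kb of a gene, with a mean of 2.30% mC. The shares over all positions are therefore from mostly lower levels of mC. limma on log ratios called 0 on either allele after adjustment, with 1056 domesticus (7.998%, against 5.07% of all) and 984 castaneus (7.70%, against 5.01% of all) intergenic positions at an unadjusted p under 0.05.

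Most domesticus calls had libraries near 0 and near 100% at the same position. Of the 15, 14 had a library at or under 10% mC and another at or over 80%, 9 had controls more than 50 points apart, and in 6 the groups did not overlap. Such splits were found at 36 intergenic positions on domesticus (0.273%) and at 2 on castaneus (0.016%), and at 114 and 8 of all positions. One of them, chosen after its values were seen, lay at chr1:111097802, 120 kb from Cdh19, which encodes a cadherin, with 1.59, 95.8 and 88.6% in controls and 0 and 0% in depleted libraries. By the labels the dams were 129/C57, and the part of sequence differences between dams was not tested. The castaneus call at chr10:8545016, 26.2 kb from Ust, rested on depleted replicate 2, at 30.2% against 91.3 to 100% in the other libraries, and its 31-base stretch occurs 18 times in the reference, so its place is uncertain.

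Regions carried more calls each and were tested by the same limma-moderated model over all regions of the allele. On castaneus 2 intergenic regions passed, both lower in depleted libraries, where 0.0608% of all regions passed. On domesticus 0 passed, against 0.0449% of all regions, and limma on log ratios called 0 on both alleles. At an unadjusted p under 0.05, 38 castaneus regions were lower and 23 higher (6.69% of intergenic regions, against 3.83% of all), whereas limma on log ratios gave 29 (3.18%, against 5.46% of all). On domesticus 51 were lower and 28 higher (8.16%, against 3.89% of all), whereas limma on log ratios gave 24 (2.48%, against 5.11% of all). The excess over all regions at this threshold was thus not seen with limma on log ratios, on either allele. No overlap between the groups' libraries was seen in 194 castaneus regions (21.3%, against 15.3% of all regions), 85 lower and 109 higher. The same held for 192 domesticus regions (19.8%, against 15.4% of all), 103 lower and 89 higher. Of the 10 labellings of 3 and 2 libraries, 2 keep the groups apart wherever the values differ, so such shares can arise without a change. Regions not intergenic and under 10% mC made up 7751 of the 11507 castaneus and 7364 of the 11144 domesticus regions, so the shares compare unlike levels of mC. The median region changed by 0.0114 points on castaneus and -0.0718 on domesticus, and over all regions by -0.0019 and -0.0026.

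**Figure D4:**
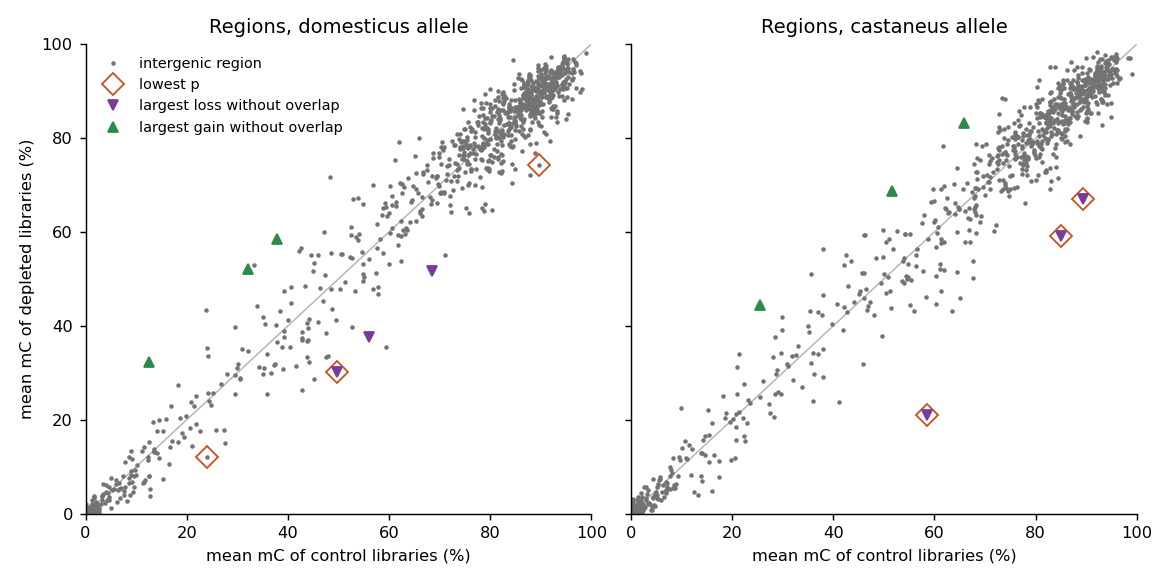
Mean mC (%) of depleted against control libraries for each intergenic region on the domesticus (left, 968 regions) and castaneus (right, 912 regions) allele, with the line of equal values. Diamonds mark the regions of lowest p, and triangles the largest losses and gains among regions whose libraries do not overlap. The castaneus region near Gm13655 lies farthest below the line.

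The castaneus region near Mif (chr10:75865984-75866048, 10 cytosines of 5 CpGs) lay 5.74 kb from that gene, which encodes a cytokine, and 60% of its positions were repeat-masked. Its mC was 84.9, 84.1 and 86.2% in controls and 62.6 and 55.9% in depleted libraries, from 454 to 808 calls. Every depleted library was lower than every control, by 25.9 points on average (85.1% ± 1.06, n = 3, against 59.2% ± 4.76, n = 2; limma-moderated quasi-binomial test, adjusted p = 0.000393). Depleted means were lower at 10 of its 10 cytosines, without overlap at 9. Neighbouring cytosines share reads, and the region was chosen by their summed calls, so these counts are no separate support. Without depleted replicate 2 the adjusted p of that model was 0.0621, by limma on log ratios it was 0.551, and over 10 alternatives it ran from 7.8e-56 to 0.826. The lowest p among those alternatives came from Fisher's exact test of group sums, which ignores the spread between libraries. The domesticus copy had 91.5, 86.1 and 89.9% against 87.3 and 85.2%, and the groups overlapped there. Whether the alleles differed in their change was not tested, since the region was chosen by the castaneus values.

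The castaneus region near Gm13655 (chr2:75610089-75610147, 5 positions, 80% repeat-masked) lay 22.5 kb from that processed pseudogene. It had 64.0, 59.0 and 52.4% mC in controls and 21.5 and 20.6% in depleted libraries, from 155 to 289 calls. The groups did not overlap at any of the 5 positions, which share reads and were chosen through their summed calls. The difference was -37.4 points (limma-moderated quasi-binomial test, adjusted p = 0.0166, and from 3.5e-29, by Fisher's exact test, to 0.826 over 10 alternatives). The adjusted p of that model was 0.0719 with control replicate 1 left out, 0.639 with depleted replicate 1 left out and 0.381 with depleted replicate 2 left out, and limma on log ratios gave 0.499. The domesticus copy had 62.0, 40.2 and 65.8% against 39.1 and 36.3%, a difference of -18.3 points without overlap, and did not pass there (adjusted p = 1.0 in the same limma-moderated model).

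**Figure D5:**
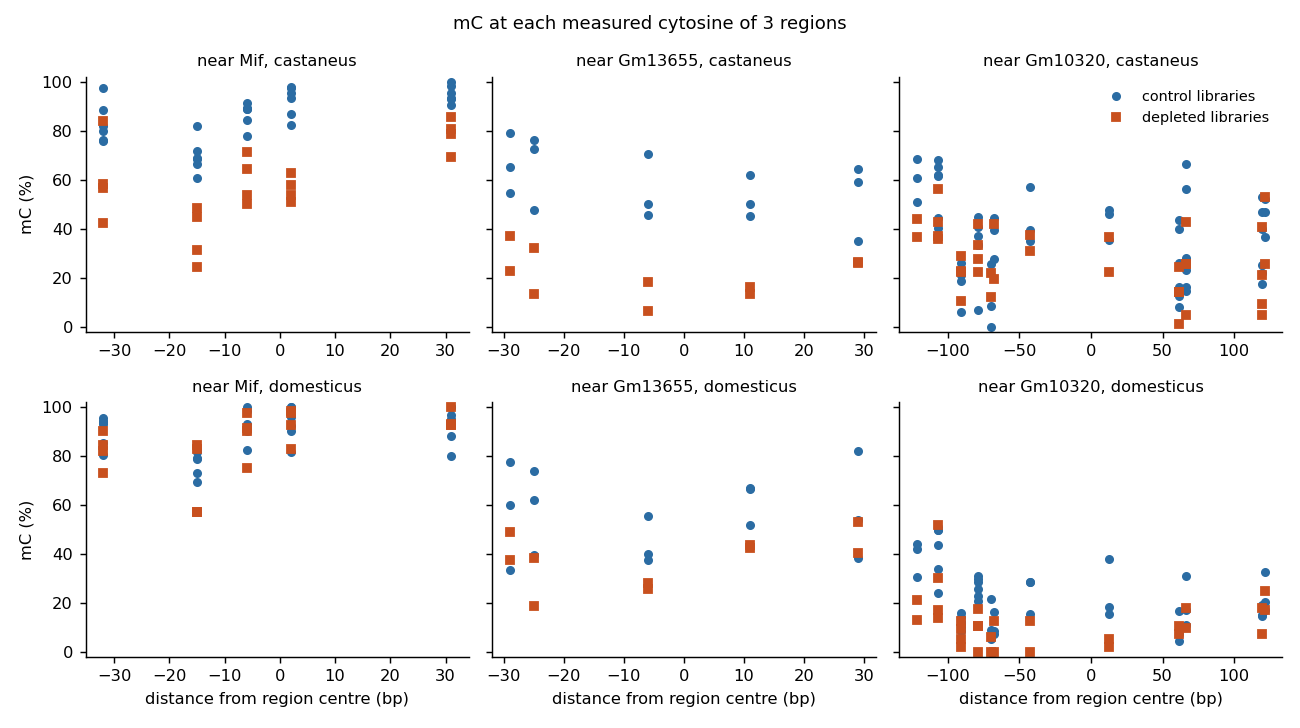
mC (%) of each control (circles) and depleted (squares) library at each measured cytosine of the regions near Mif, Gm13655 and Gm10320, by distance in bp from the region's centre, on castaneus (top) and domesticus (bottom). Depleted means are lower at 10 of 10 castaneus cytosines near Mif, and at 15 of 15 domesticus cytosines near Gm10320. Cytosines of a region share reads, and the regions were chosen by low p, so these counts are no test.

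The next regions by p did not pass in the main fit. The domesticus ones near Dancr, Gm10320 and Gm12381 passed when same-numbered libraries were compared (limma-moderated adjusted p = 0.0406, 0.0194 and 0.0104). The castaneus region near the lincRNA Gm14262 (chr2:168311202-168311264, 16.1 kb away, no repeat-masked position) had 91.9, 82.2 and 94.2% in controls and 68.9 and 64.9% in depleted libraries (limma-moderated adjusted p = 0.066). It was 0.00307 in that limma-moderated model without control replicate 2 and 0.971 without depleted replicate 2. On domesticus the lowest p was near Dancr, a noncoding RNA 31.001 kb away (chr5:74126407-74126471, 9 positions). It had 51.8, 44.4 and 52.7% against 26.2 and 34.3%, a difference of -19.4 points (limma-moderated adjusted p = 0.0765). Near Gm10320 (chr13:98502956-98503199, in a CpG island, 15 positions) mC was 28.9, 18.8 and 24.4% against 13.7 and 10.5% (limma-moderated adjusted p = 0.154). Both these regions passed when control replicate 1 or control replicate 2 was left out (limma-moderated adjusted p = 0.00704 and 0.00737 near Dancr, 0.0467 and 0.00519 near Gm10320). Neither passed when control replicate 3 was left out (limma-moderated adjusted p = 0.220 near Dancr and 0.321 near Gm10320). The same held on dropping the first depleted library (limma-moderated adjusted p = 1.0 and 0.498) or the second (1.0 near Gm10320 and 0.133 near Dancr). The castaneus copy of the Gm10320 region had 31.1, 33.0 and 40% against 33.4 and 21.7%, and the groups overlapped. About 2 kb farther along that chromosome, the region near Gm37425 whose sequence is shown above had 0.603% ± 0.321 (SD, n = 3) against 0.597% ± 0.272 (SD, n = 2). The domesticus region near Gm12381 (chr4:39049906-39049987, 194 kb away) had 92.7, 89.4 and 86.5% against 68.6 and 79.9% (limma-moderated adjusted p = 0.176). At both cytosines of 1 of its CpGs (chr4:39049951 and chr4:39049952) depleted replicate 1 had 0 and 5.71% mC and the other libraries 88.4 to 100%. The region holds a 31-base stretch found 84 times, so its place is uncertain.

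No gain passed the test in the main fit. The Thbs2 region named below passed when same-numbered libraries were compared (limma-moderated adjusted p = 0.0406). On castaneus the largest gain without overlap between groups was smaller than each of the 3 losses above, and 4 castaneus regions lost and 0 gained more than 20 points, against 1 and 2 domesticus regions. Among domesticus regions whose groups did not overlap, the largest gain lay near Gm38343, from 34.5, 44.2 and 34.6% in controls to 57.3 and 59.5% in depleted libraries (chr4:47947999-47948057, 20.6 points, limma-moderated adjusted p = 0.24). Near Gm24986 and near Thbs2, which encodes a thrombospondin, the differences were 19.9 points each. In the Thbs2 region depleted replicate 1 had 20.4% and depleted replicate 2 had 44.3%, against 9.31 to 17.4% in controls. On castaneus the largest gains were 18.9 points near Slco4a1, a transporter gene, 17.3 near Gm10293 and 17.1 near Gm49009. A large domesticus loss near Gm12354, of -16.8 points, came from depleted replicate 2 at 38.6%, since depleted replicate 1 had 64.9% against 66.3 to 71.2% in controls. A 31-base stretch of that region occurs 26 times in the reference, so its place is uncertain. Since members were picked for these differences, they are descriptions.

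Regions alike in sequence to the Mif region changed by fewer points than it did, which its choice by low p made likely. With an ungapped match of at least 75% identity over at least 40 bp, 10 other castaneus regions and 11 domesticus regions were alike to it. The castaneus ones had control mC of 87.4 to 96.5%, and changed by -4.56 to 3.07 points in depleted libraries. The domesticus ones had 66.5 to 98.0% and changed by -4.22 to 4.14 points. The castaneus copy of the Gm48216 region, 87.9% identical over 58 bp, had 92.0, 94.1 and 93.3% in controls and 89.2 and 90.8% in depleted libraries, a difference of -3.08 points without overlap. Its domesticus copy had 90.6, 86.2 and 82.2% against 84.96 and 89.1%, and the groups overlapped. Regions alike to the Gm12381 region changed by a median of 0.985 points on domesticus (42 regions, from -9.27 to 7.76) and 0.191 on castaneus (40 regions, from -12.1 to 12.3). The same search from the Gm13655 region found none. These searches were made after the losses were seen.

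The unmasked regions described next were chosen for low mC and many positions, so their low level follows from that choice. The domesticus region with the most positions, 33.6 kb from Foxk1, a forkhead factor gene, held 44 positions (chr5:142367587-142367887) with 0.0696% ± 0.0215 (control SD, n = 3) and 0.132% ± 0.138 (depleted SD, n = 2). The region near Calcoco1 (25 positions) had 0.551 and 0.638%. On castaneus the regions near Gm24240, Gm26474 and Grip2, which encodes a scaffold protein of synapses, had 0.0345, 1.97 and 1.62% in controls and 0.102, 1.62 and 1.70% in depleted libraries. The groups overlapped in each of these regions. Fully repeat-masked regions were chosen for high mC and many positions, so their high level follows from that choice too. Control and depleted means were 89.4% ± 2.94 and 91.1% ± 3.33 near Gm11892 on domesticus. They were 92.5% ± 0.842 and 92.9% ± 0.469 near Gm43155 on castaneus. Stretches of these repeats occur 34 and 1792 times in the reference, so their place is uncertain.

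The alleles were alike over the positions they shared. Means were 62.3% ± 0.548 on domesticus and 62.2% ± 0.622 on castaneus in controls, and castaneus minus domesticus was 0.159, -0.106 and -0.276 points in controls and 0.032 and -0.186 in depleted libraries (mean -0.075, two-sided exact sign-flip permutation p = 0.438). Across the 4923 positions, which share libraries and sequence and are no replicates, Pearson's r of the alleles' mC was 0.927. The alleles differed by over 20 points at 404 positions (8.21%). In all 5 libraries domesticus was more than 20 points higher at 61 positions and castaneus at 32. Of 300 regions covered on both alleles, 13 differed by more than 20 points on average, 8 higher on domesticus and 5 on castaneus.

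The largest allele difference lay 5.94 kb from Cript, which encodes a PDZ-binding protein (chr17:87041751-87041834, 9 positions). Castaneus had 8.65, 11.3 and 5.41% in controls and 2.86 and 9.31% in depleted libraries, and domesticus had 78.2, 81.4 and 79.96% against 80.4 and 79.0%. The alleles were far apart in every library, and the groups overlapped on each allele. Near Gm22337 (100% repeat-masked, with a stretch found 160 times, so its place is uncertain) castaneus controls had 46.0% ± 5.58 and domesticus controls 92.7% ± 5.11. Near Gm7482 domesticus had 90.1 and 91.0% in control replicates 1 and 2, 3.75% in control replicate 3, and 88.9 and 87.3% in depleted libraries, while castaneus had 10.9 to 21.1%. The largest excess of castaneus was smaller, 28.1 points near the lincRNA 4921531P14Rik, 27.9 near Ascl5, a transcription factor gene, and 25.99 near Slco4a1. Near Ascl5 castaneus had 83.9, 75.6 and 72.5% in controls and 74.2 and 72.6% in depleted libraries. Domesticus had 38.2, 74.0 and 65.9%, then 38.3 and 32.8%, so the alleles stood closer in control replicates 2 and 3 than in the other libraries. The region holds a called domesticus position, chr1:136043152, with 4.17, 70.0 and 70.5% in controls and 0 and 0.935% in depleted libraries. These regions were ranked by the difference between the alleles, which has no test. All libraries had domesticus dams and CAST sires, so strain and parent of origin cannot be told apart in any allele difference.

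Short motifs were counted in 300 bp around each region's centre, on both strands, where 1 window may hold several. TGCCGC, the methylation-dependent motif of the zinc finger protein Zfp57, was in 10.3% of domesticus and 11.6% of castaneus intergenic windows, against 22.3 and 22.6% of all regions. Among regions over 80% mC the shares were 8.03 and 11.1% for intergenic and 10.1 and 10.6% for other regions, and under 10% mC they were 19.1 and 17.6% against 27.6 and 27.3%. AGGGGGC, part of the Ctcf motif, was in 5.89 and 5.48%, against 11.6 and 11.3%. TGANTCA, the AP-1 motif, was in 5.37 and 6.58%, against 3.71 and 3.93%. Among regions over 80% mC its shares were 3.90 and 5.70% for intergenic and 4.73 and 5.35% for other regions, and under 10% mC they were 8.55 and 6.06% against 2.93 and 2.89%. Intergenic regions under 10% mC held AGGGGGC in 14.5% of domesticus and 10.9% of castaneus windows. Of the regions that were not intergenic and under 10% mC, 14.5 and 13.9% held AGGGGGC. The part of base composition in these shares was not tested.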

How the data were processed

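Single-end reads were trimmed with Trim Galore and aligned by the authors with Bismark to an mm10 genome in which known strain variants were masked, read ends were left out after inspection of methylation bias, reads were split by SNPsplit into domesticus and castaneus, and C/T differences were not used. The deposited files hold methylation calls from Bismark's extractor, whose version was 0.13.0, with 1 call per read and CpG, in other words neither counts per position nor a normalised level. Removal of PCR duplicates is not given in the sources used here. Reads marked by the sequencer's filter were kept.

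Calls were summed per reference CpG cytosine, with genes from GENCODE M21 and sequence and repeat masking from RefSeq's GRCm38. CpG islands (200 bp, GC 0.5, observed to expected ratio 0.6) were found in it with repeat-masked bases hidden. CpG-dense repeats were thus largely kept out of islands by definition. Means over positions were compared by exact permutation of library labels, and levels within libraries by exact sign flips. Positions and regions were tested with a quasi-binomial model, checked on simulated data, whose dispersion was moderated with limma 3.58.1 (R 4.3.3) and floored at 1, over all covered features of an allele including the X, with Benjamini-Hochberg adjustment at 0.05. Other steps used Python 3.11.15, numpy 2.4.6, pandas 2.3.3 and matplotlib 3.10.9.

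The members, classes and lists were chosen with earlier results of these data known. Named regions were, per allele, those past the threshold (the 3 of lowest p where fewer passed), the 3 largest losses and gains without overlap, the 3 unmasked regions under 10% mC with most positions, the 2 fully masked regions over 80% with most positions, and the 3 largest differences in each direction between alleles. Alternatives were the coverage minimum, distance, pooling, strands, reads and copies, each library left out, the replicate block, other tests, and a robust dispersion prior added after the data were seen. The labels do not say whether replicate numbers pair the libraries, so the main tests did not pair them.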

Additional observations from a re-analysis of the deposited data

How the results depend on the processing

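The mean change was small enough for its sign to turn. On castaneus it was -0.0028 points with more than 40 calls required, and leaving out 1 library gave -0.142 to 0.426. On domesticus it was -0.112 with more than 40 calls and -0.105 to 0.527 with 1 library left out. The change in intergenic minus gene body mC ran from -0.302 to 0.0471 on castaneus with 1 library left out and was 0.0435 on domesticus with calls pooled over positions. The change in repeat minus non-repeat mC ran from -0.268 to 0.0651 on domesticus and from -0.472 to -0.193 on castaneus. The change in mixed reads on castaneus was 0.00673 without CpG islands, 0.848 with at least 6 calls per read, and -0.837 to 0.724 with 1 library left out. Castaneus minus domesticus was 0.072 with more than 10 calls, 0.126 with strands merged and 0.567 with pooled calls, and its change was 0.145 with more than 10 calls, 0.0519 with more than 40, 0.00049 without filter-marked reads, 0.00106 with single-copy stretches only, and -0.111 to 0.115 with 1 library left out. The cause was not tested.

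Counts of called features moved most with the test. Castaneus positions (1 in the report) came to 0 with more than 40 calls, with single-copy stretches, by limma and with a dispersion prior from all features, 2 with strands merged, 741 by Fisher's exact test of group sums, which ignores the spread between libraries, and 0 to 4 with 1 library left out (0 without depleted replicate 2, 4 without control replicate 3). Castaneus regions (2) came to 0 with more than 40 calls, by limma and with the prior from all features, 1 beyond 10 kb from genes and with at least 8 positions, 160 by Fisher's exact test, and 0 to 6 with 1 library left out (0 without depleted replicate 2, 6 without control replicate 3). Domesticus positions (15) came to 4 with more than 40 calls, 0 by limma and with the prior from all features, 8 with the robust prior chosen after seeing the data, 805 by Fisher's exact test, and 9 to 20 with 1 library left out (9 without depleted replicate 2). Domesticus regions (0) came to 182 by Fisher's exact test and 0 to 4 with 1 library left out (4 without control replicate 1, 3 without control replicate 2).

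Deviations of same-numbered libraries correlated at 0.0038 and 0.017 on castaneus and -0.023 and 0.010 on domesticus. These are deviations at single positions with few calls, so they cannot exclude that same-numbered libraries were handled together. Mean mC was higher in replicate 2 than in replicate 1 in both groups on both alleles. It was 62.5 and 63.1% in controls and 62.4 and 62.9% in depleted libraries on castaneus, and 64.0 and 64.8%, then 64.0 and 64.7%, on domesticus. With the replicate block, on replicates 1 and 2 alone, the mean change was -0.142 points on castaneus and -0.0375 on domesticus, and calls came to 0 castaneus and 4 domesticus positions, and 2 castaneus and 5 domesticus regions, where the fit without control replicate 3, which adds nothing to the block, gave 4 and 10 positions and 6 and 0 regions. The domesticus regions near Dancr, Gm10320, Gm12381 and Thbs2 were among those 5, with limma-moderated adjusted p of 0.0406, 0.0194, 0.0104 and 0.0406 in the block. A median of 45 to 49 calls per position limits what 1 position can show.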
